A study of Mus musculus with 108 samples.

Results

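The genes described here are 29 genes of the sterol pathway, picked by symbol from the 55416 genes of the count table. They are 19 enzymes of sterol and isoprenoid synthesis, 5 genes of sterol sensing and of transport inside the cell, and 5 genes of cholesterol uptake and efflux. RNA was sequenced from 3 tissues, white adipose tissue (WAT), kidney and liver, of male mice labelled as strain C57BL/J, aged 8 to 12 weeks, on 12 h of light and 12 h of dark with free food and water. The animals carried the label Bmal1-flox, the control with a Bmal1 allele that Cre recombinase can cut, or Bmal1-iKO; Bmal1, gene symbol Arntl, is a core transcription factor of the circadian clock. They are written flox and iKO here. The labels name neither the promoter that drives Cre nor the tissue of the deletion, and only the series title points to the intestine. Tissue was taken at 6 zeitgeber times (ZT, hours after lights on): ZT2, ZT6, ZT10, ZT14, ZT18 and ZT22. Each group of tissue, genotype and time held 3 libraries, with 36 libraries per tissue. Nothing in the labels says whether the 3 libraries of a group came from separate animals, and the p-values then speak only to the spread among these libraries, which may be technical.

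Cells make cholesterol from acetyl-CoA through mevalonate, farnesyl diphosphate, squalene and lanosterol, and a branch at farnesyl diphosphate leads to other isoprenoids. When membrane sterol runs low, the escort protein Scap carries the transcription factor SREBP2, encoded by Srebf2, out of the endoplasmic reticulum, and the cut factor turns on the enzyme genes. The Insig proteins hold Scap back when sterol is plentiful, and Insig1 is itself a target of SREBP. Efflux runs the other way: oxysterols activate the nuclear receptor LXR, which turns on the exporters Abca1, Abcg1 and the Abcg5 and Abcg8 pair, and Mylip, a ubiquitin ligase that removes lipoprotein receptors.

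Proximal promoters are shown for the 4 members of low p-value in the liver genotype comparison that RefSeq's promoter table covers (Insig1, Mvd, Sc5d and Dhcr7), and for Hmgcs1, the cytosolic synthase that precedes mevalonate, as the sole member with a match to the sterol regulatory letters searched. Each is 250 bases upstream of the start on RefSeq's assembly GRCm38.p6, 5′ to 3′ on the gene's strand. Capitals mark CACGTG (the E-box that the clock factor Bmal1 and its partner can bind), TCACNCCAC (a sterol regulatory element) and CCAAT, on either strand, so that a match on the other strand reads ATTGG for the last.
Insig1, chr5:28071162-28071411, plus strand: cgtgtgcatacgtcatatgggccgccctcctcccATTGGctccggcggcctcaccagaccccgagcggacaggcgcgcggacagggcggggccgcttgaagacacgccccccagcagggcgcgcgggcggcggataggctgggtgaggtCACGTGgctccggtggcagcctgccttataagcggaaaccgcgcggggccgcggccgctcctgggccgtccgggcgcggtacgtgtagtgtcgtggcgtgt
Mvd, chr8:122443423-122443672, minus strand: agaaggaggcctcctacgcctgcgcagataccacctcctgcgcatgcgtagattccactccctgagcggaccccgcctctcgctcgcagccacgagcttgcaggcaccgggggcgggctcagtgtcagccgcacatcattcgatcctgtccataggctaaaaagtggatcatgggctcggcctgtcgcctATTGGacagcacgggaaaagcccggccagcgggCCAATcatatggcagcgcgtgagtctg
Sc5d, chr9:42264301-42264550, minus strand: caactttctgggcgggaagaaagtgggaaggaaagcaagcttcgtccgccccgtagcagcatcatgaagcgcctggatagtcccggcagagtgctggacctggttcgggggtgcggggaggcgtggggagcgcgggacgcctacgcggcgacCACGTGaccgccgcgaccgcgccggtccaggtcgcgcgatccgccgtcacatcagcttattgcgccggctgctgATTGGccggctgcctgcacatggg
Dhcr7, chr7:143829964-143830213, plus strand: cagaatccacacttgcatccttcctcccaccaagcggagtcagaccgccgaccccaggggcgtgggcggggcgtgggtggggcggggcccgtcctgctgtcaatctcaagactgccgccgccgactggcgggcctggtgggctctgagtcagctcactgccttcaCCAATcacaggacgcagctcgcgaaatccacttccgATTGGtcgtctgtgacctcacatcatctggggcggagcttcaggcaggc
Hmgcs1, chr13:119690101-119690350, plus strand: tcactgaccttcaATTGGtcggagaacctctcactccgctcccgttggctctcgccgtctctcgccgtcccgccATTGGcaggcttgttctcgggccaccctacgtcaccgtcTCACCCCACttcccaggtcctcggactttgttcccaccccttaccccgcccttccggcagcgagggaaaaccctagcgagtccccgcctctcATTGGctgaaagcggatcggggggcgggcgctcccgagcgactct
Of the 29 members, 24 matched the table by symbol, with 31 windows that run from 250 bases before to 50 bases after the start; Fdps, Fdft1, Sqle, Stard4 and Abcg1 had no entry. Over the whole windows, CACGTG was found in 7 of the 31 member windows and in 7.15% of all 32851 windows. Those 7 belong to 6 of the 24 members (Hsd17b7, Sc5d, Dhcr7, Scap, Insig1 and Abca1). Dhcr7 has 3 windows, and the one shown was picked because it holds the most matches of the searched letters in its 250 bases. The CACGTG match of Dhcr7 lies in another of its windows. TCACNCCAC was found in 1 of the 31 member windows, that of Hmgcs1, and in 1.24% of all windows. CCAAT was found in 21 of the 31 member windows and in 37.4% of all windows. A match is a description of the letters, and no binding was measured.

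The libraries held 13876000 to 24415000 counted reads each, and hepatocyte markers in liver (10 genes, 11.37 to 12.57 log2 CPM, where CPM is counts scaled to library size) and kidney epithelium markers in kidney (10 genes, 8.93 to 10.3) were high in all libraries. Arntl itself was not called between the genotypes in any tissue (average log2 difference in liver -0.10, SE 0.18, adjusted p = 0.763 by edgeR), so it does not check the labels; the tissue named in the title was not analysed here. In liver, 11 of 36 libraries stood apart by a high mean of 30 cell cycle genes (3.27 to 3.99 log2 CPM against -0.96 to 0.49 in the other 25). They comprised all 3 replicates of iKO at ZT22, replicates 1 and 2 of iKO at each of ZT18, ZT14 and ZT6, and replicate 1 of flox at ZT22 and at ZT6, so 9 of 18 iKO and 2 of 18 flox libraries. A library is named below by genotype, time and replicate number. The same 11 had macrophage markers (13 genes) at 7.84 to 9.12 against 2.01 to 6.62, and mitochondrially encoded RNAs (13 genes) at 7.52 to 9.22 against 9.06 to 12.26. Hepatocyte markers overlapped between them, at 11.37 to 12.57 against 11.78 to 12.57. Of these numbers 2, iKO ZT18 1 and iKO ZT22 3, also carried the female RNA Xist in liver although labelled male. The main liver results below are therefore given with and without the 11. The fit without them has no ZT22 comparison and a single iKO library at ZT6, ZT14 and ZT18, which is taken to vary as the libraries of the other groups do. The part that dividing or immune cells play in any result was not tested.

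In liver, the enzymes of sterol synthesis stood lower in iKO than in flox on average over the day, and so did the regulator Insig1, but none of the 29 members passed the test when all 36 libraries were used. The test was edgeR's quasi-likelihood test with p-values adjusted over all 16582 genes tested; a gene is called at an adjusted p under 0.05, and 2.64% of the genes were called. The average difference was negative for 18 of 19 enzymes, with a median of -0.54 on the log2 scale against 0 for all genes. At an unadjusted p under 0.05 lay 7 members lower and 4 higher in iKO, where 11.5% and 13.1% of all genes did so. When the 11 were left out, 14 of 29 members were called, 13 lower and 1 higher in iKO, where 3.91% and 3.12% of 17067 genes were called in these directions. The median over the 29 was then -0.50 against -0.05 for all genes. That fit held 16 flox and 9 iKO libraries. Leaving out 1 library at a time gave 0 to 9 called members, the 9 without flox ZT6 1 or without flox ZT22 1, and 208 to 3247 called genes in all.

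**Figure D1:**
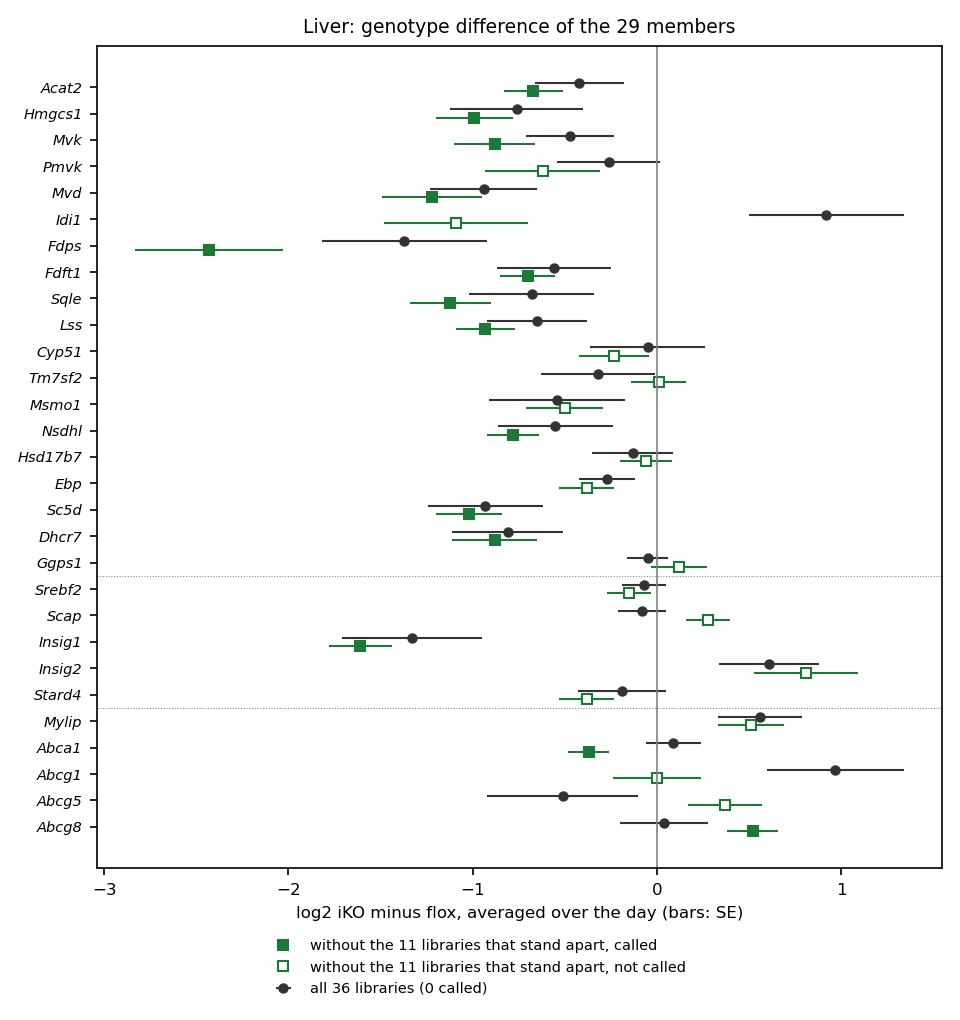
Average log2 difference of iKO minus flox in liver for the 29 members, with all 36 libraries (black circles) and without the 11 that stand apart (green squares, filled where called); bars are SE, and dotted lines part enzymes, sensing genes and uptake and efflux genes. Most enzymes lie left of 0 in both fits, while Idi1 lies at 0.92 in the first and at -1.09 in the second. The second fit has no ZT22.

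Insig1, the SREBP target that holds Scap in the endoplasmic reticulum, had the smallest p of the 29. It ran from 17.8 to 689 CPM in the 18 flox libraries (median 355) and from 10.4 to 517 CPM in the 18 iKO libraries (median 114). The 2 lowest flox libraries, at 17.8 and 23.5, were the 2 that stand apart. Its average difference was -1.33 (SE 0.38, adjusted p = 0.0543), and it was lower in iKO at 6 of 6 times. Among the other 25 libraries the genotypes did not overlap: the 16 flox libraries lay at 257 to 689 CPM and the 9 iKO libraries at 77.1 to 177 CPM. Insig1 then fell by 1.61 (SE 0.17, adjusted p = 2.99e-06). In these bulk samples fewer cells that make an RNA and less of it per cell cannot be told apart.

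Of the enzymes, Mvd, Fdps, Sc5d and Dhcr7 had the smallest p-values and were lower in iKO at 6 of 6 times. Mvd, which makes isopentenyl diphosphate from mevalonate diphosphate, ran from 3.83 to 109 CPM in flox (median 48.8) and from 7.38 to 66.5 in iKO (median 18.7). Fdps, the farnesyl diphosphate synthase, ran from 0.276 to 9.77 CPM in flox (median 6.51) and from 0.0692 to 8.93 in iKO (median 1.63). The ranges overlap in both genes. Their average differences were -0.94 (SE 0.29, adjusted p = 0.0712) for Mvd and -1.37 (SE 0.45, adjusted p = 0.0827) for Fdps by edgeR.
Sc5d, the sterol desaturase late in the path, ran from 40.2 to 848 CPM in flox (median 356) and from 25.6 to 503 in iKO (median 211), a difference of -0.93 (SE 0.31, adjusted p = 0.086). Dhcr7, the reductase of the last step to cholesterol, ran from 11.7 to 210 CPM in flox (median 102) and from 13.9 to 148 in iKO (median 50), a difference of -0.81 (SE 0.30, adjusted p = 0.108). In all 4 enzymes the 2 flox libraries that stand apart were the 2 lowest of the flox libraries. DESeq2 called Insig1, Mvd, Fdps, Sc5d and Dhcr7 with all 36 libraries (adjusted p from 0.00634 to 0.0488), and called 10.1% of its 15933 genes.

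Without the 11 libraries, 11 of 19 enzymes fell, and they spread over the whole path. Early in it fell Acat2 (-0.67), which joins acetyl units, Hmgcs1 (-0.99), the mevalonate kinase Mvk (-0.88), Mvd (-1.22) and Fdps (-2.43). In the middle fell the squalene synthase Fdft1 (-0.70), the squalene epoxidase Sqle (-1.12) and the lanosterol synthase Lss (-0.93), which closes the rings. Late in it fell the dehydrogenase Nsdhl (-0.78), Sc5d (-1.02) and Dhcr7 (-0.88). The adjusted p-values of the 11 ran from 0.000551 to 0.0259 by edgeR. Fdps had the lowest levels of these, and in iKO ZT14 3 it stood at 0.0692 CPM. The 8 others did not pass: Pmvk -0.62, Idi1 -1.09, Cyp51 -0.23, Tm7sf2 0.01, Msmo1 -0.50, Hsd17b7 -0.06, Ebp -0.38 and the branch enzyme Ggps1 0.12. With all 36 libraries the same 8 had differences of -0.26, 0.92, -0.05, -0.32, -0.54, -0.13, -0.27 and -0.05 in that order, and none was called. Acat2 shares 45.9% of its 50-base stretches with Acat3, Fdft1 30.7% with other genes and Idi1 30.5% with other genes. Hmgcs1 shares 13.6%, Scap 13.1%, Ggps1 11.8% and Fdps 11.7% with other genes, and every other member at most 3.17%. The counts of all these named genes are less certain than the rest. Fdps also had few counts, from 0 to 217 per library over all tissues. Markers of cell types moved in the same fit: of the hepatocyte markers 1 of 9 fell (Alb, median of the list -0.38), of mesothelium markers 2 of 5 (Upk3b and Msln, median -1.70), of cholangiocyte markers 2 of 7 (Sox9 and Krt7, median -0.59), and of adipocyte markers 2 of 6 rose (Cidec and Pck1, median 0.18). Of 13 macrophage markers 0 were called. The other marker lists with a gene called up were brown adipocyte (Elovl3, list median 1.21) and endothelium (Stab2, list median 0.02). Called down were interferon-stimulated genes (Oasl1, Ifih1 and Ddx58, list median -0.38), the lymphocyte marker Cd4 (list median -0.04) and the cell cycle gene Rrm2 (list median -0.21). The part of these cells and genes in the enzyme values was not tested.

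**Figure D2:**
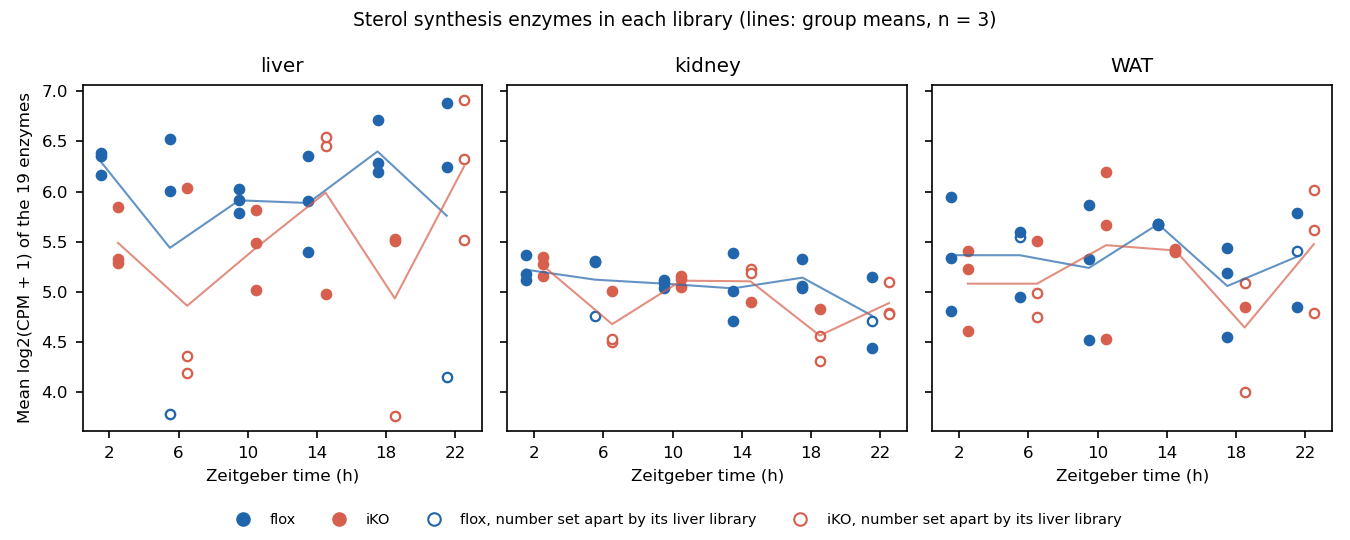
Mean log2(CPM + 1) of the 19 synthesis enzymes in each library against zeitgeber time in liver, kidney and WAT, with flox in blue and iKO in red; lines join group means (n = 3), and open circles are numbers whose liver library stands apart. In liver the open circles lie at both ends of the range, from 3.77 to 6.91.

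Summed up per library, the mean of the 19 enzymes in liver, as log2(CPM + 1), ran from 3.79 to 6.88 in flox (median 6.19) and from 3.77 to 6.91 in iKO (median 5.52). Most enzymes lay below their flox median in 14 of 18 iKO and 8 of 18 flox libraries. Among the other 25 that held for 8 of 9 iKO and 6 of 16 flox libraries. The plot of enzyme means by library shows that the libraries that stand apart did not share a level: flox ZT6 1, flox ZT22 1 and iKO ZT18 2 were the lowest of all 36, while iKO ZT22 1 at 6.91 was the highest.

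Idi1, the isomerase between Mvd and Fdps, went against the other enzymes, and libraries that stand apart carried that difference. At ZT14 it stood at 3.33, 7.77 and 8.94 CPM in flox and at 123, 257 and 2.08 in iKO. The high iKO libraries, 1 and 2, are among the 11, and the third lay below all flox libraries. At ZT22 the flox libraries were at 29, 83.3 and 9.13 CPM and the iKO libraries, all among the 11, at 160, 11.8 and 153. Over all times its difference was 0.92 (SE 0.42, adjusted p = 0.173 by edgeR) with all libraries. Without the 11 it was -1.09 (SE 0.39), so its sign turned, and neither difference passed. The fit without the 11 leaves out ZT22, where iKO was high, and has a single iKO library at ZT6, ZT14 and ZT18. The times averaged thus differ between the fits. At ZT2, where no library stands apart, iKO lay at 2.64, 3.44 and 2.29 CPM and flox at 6.91, 5.69 and 8.08, without overlap.

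Among the sensing genes, Insig2, the second Insig gene, stood opposite to Insig1. It ran from 43.1 to 912 CPM in flox (median 165) and from 76.8 to 990 in iKO (median 231), a difference of 0.61 (SE 0.27, adjusted p = 0.165); without the 11 it was 0.81 (SE 0.28, adjusted p = 0.0926). The ratio of Insig2 to Insig1 CPM, chosen after the values were seen and given as a description, ran in the libraries that do not stand apart from 0.122 to 0.808 in 16 flox (median 0.418) and from 0.447 to 8.71 in 9 iKO (median 1.57). With all 36 libraries the medians were 0.433 and 1.76, and the 2 flox libraries that stand apart were at 26.2 and 38.8. At ZT10 the 3 flox ratios were 0.144, 0.139 and 0.383 and the 3 iKO ratios 1.57, 0.953 and 1.21, without overlap. Srebf2 itself differed by -0.07 (SE 0.12), Scap by -0.08 (SE 0.13) and Stard4, a carrier of sterol inside the cell, by -0.19 (SE 0.24), and none was called with or without the 11.

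The uptake and efflux genes were not lower as the enzymes were: 4 of 5 had positive averages, with a median of 0.09. Abcg1 had the largest, 0.97 (SE 0.37, adjusted p = 0.117), and the libraries that stand apart carried it. It stood at 25.4 to 72.6 CPM in the 11 of them, flox and iKO alike, and at 1.29 to 17.4 CPM in the other 25. Without the 11 its difference was 0 (SE 0.24). Macrophage markers moved with it, as given above, and their part was not tested.
Mylip differed by 0.56 (SE 0.23, adjusted p = 0.139) and by 0.51 without the 11 (adjusted p = 0.0926); it ran from 2.25 to 23 CPM in flox (median 5.98) and from 3.4 to 20.5 in iKO (median 9.33). Abca1, which loads cholesterol onto HDL, differed by 0.09 (SE 0.15) with all libraries, but stood at 136 to 297 CPM in the 11 against 70.6 to 163 in the others, and fell by 0.37 (SE 0.11, adjusted p = 0.0487) without them. Abcg8, which with Abcg5 secretes sterol into bile, differed by 0.04 (SE 0.24) with all libraries and rose by 0.52 (SE 0.14, adjusted p = 0.0269) without the 11. Abcg5 differed by -0.51 (SE 0.41) and, without the 11, by 0.37 (SE 0.20, adjusted p = 0.314). In the libraries that stand apart Abcg5 was at 5.87 to 33.6 CPM against 31.2 to 277 in the others, and Abcg8 at 6.46 to 53.7 against 23.6 to 105.

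At single times in liver, lower sterol genes in iKO were plainest at ZT2, ZT10 and ZT18, but with 3 against 3 libraries no member was called at any time, where 0% of genes were called at ZT2, ZT6, ZT10, ZT14 and ZT22 and 0.0362% at ZT18. At ZT2 all 3 iKO libraries lay below all 3 flox libraries in 15 of 29 members, 12 of them enzymes, where 7.72% of all genes did so. At ZT10 this held for 9 members (10.4% of genes) and at ZT18 for 14 (11.1% of genes). At ZT6, ZT14 and ZT22 it held for 0 members (2.42%, 11% and 2.88% of genes). Libraries that stand apart enter each of these times. Enzyme means as log2(CPM + 1) were 3.79 in flox ZT6 1 and 4.15 in flox ZT22 1, low for flox. They were 6.45 and 6.54 in iKO ZT14 1 and 2. With these libraries in the groups, all iKO could hardly lie below all flox. The 0 therefore does not show that the genotypes were alike there. The reverse, all iKO above all flox, held for Scap at ZT2 (7.07% of genes), for Insig2 and Hsd17b7 at ZT10 (11.2%), for Mylip at ZT14 (10.1%) and for Insig2 at ZT18 (10%). No library of ZT2 or ZT10 stands apart, and at ZT18 2 of 3 iKO libraries do, so the ZT18 counts have no value without them. At an unadjusted p under 0.05 lay 11 members at ZT18 (19.8% of genes), 3 at ZT14 (19.9%), 1 at ZT22 (3.44%) and 0 at the other 3 times. DESeq2 called 6 at ZT18 (8.9% of genes), 1 at ZT14 (3.66%) and 0 at the other 4 times.

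**Figure D3:**
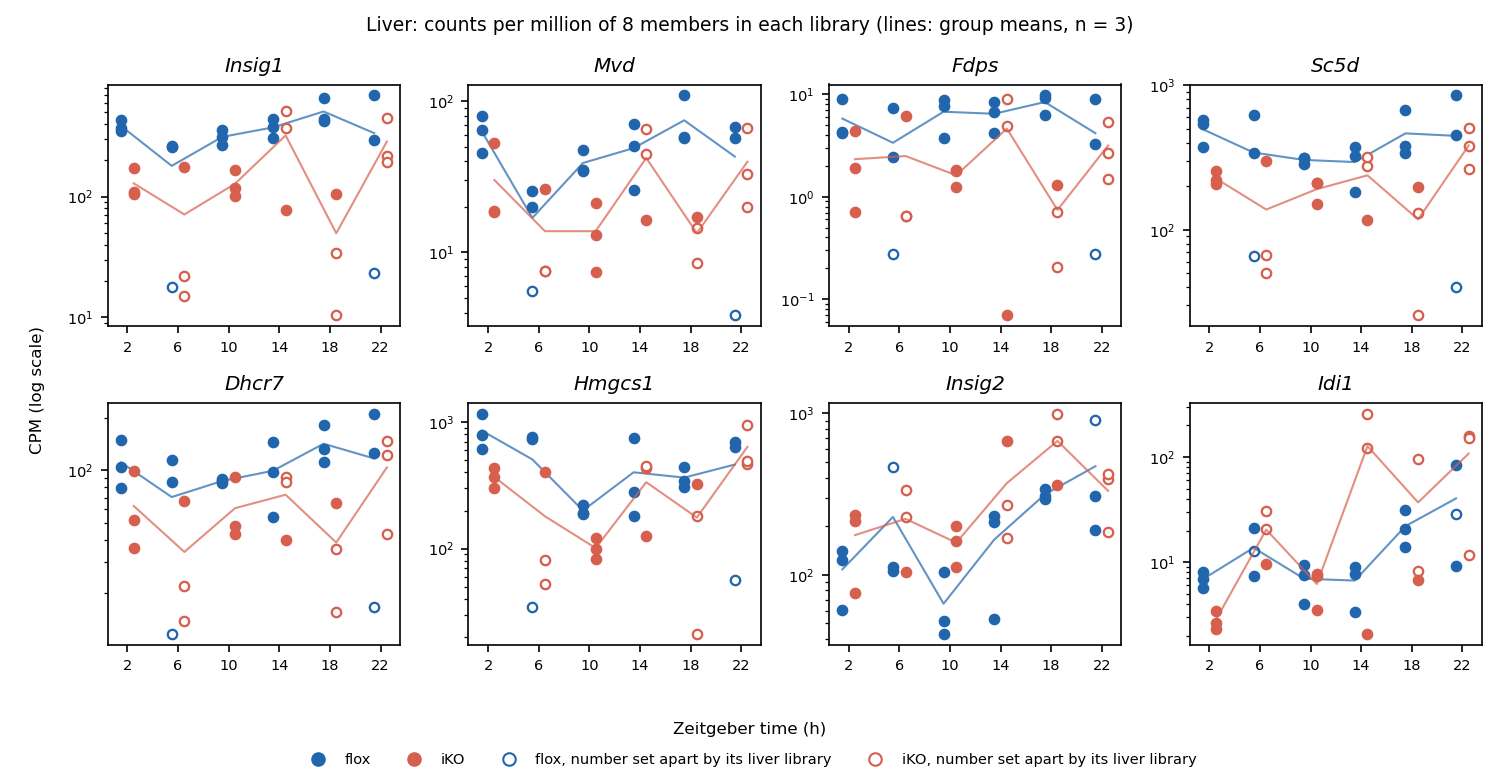
CPM on a log axis of 8 members in each liver library against zeitgeber time, flox in blue and iKO in red; lines join group means (n = 3), and open circles are libraries that stand apart. Insig1 in iKO lies below flox without overlap at ZT2, ZT10 and ZT18, and Idi1 has its highest points in open red circles at ZT14 and ZT22.

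At ZT2 Insig1 stood at 351, 372 and 433 CPM in flox and at 105, 172 and 110 in iKO. At ZT10 it stood at 359, 311 and 270 in flox and at 102, 118 and 165 in iKO. At ZT18 it stood at 423, 663 and 437 in flox and at 33.9, 10.4 and 105 in iKO. The groups did not overlap at these 3 times, and the differences were -1.58 (SE 0.94), -1.29 (SE 0.93) and -3.35 (SE 1), with adjusted p-values of 1, 1 and 0.105 by edgeR. In the fit without the 11, Insig1 was called at ZT2 (-1.60, adjusted p = 0.0172), ZT10 (-1.29, adjusted p = 0.0412), ZT14 (-2.26, adjusted p = 0.0135) and ZT18 (-2.29, adjusted p = 0.0325). The values at ZT14 and ZT18 rest on a single iKO library each, so that the spread behind them is that of the other groups. In that fit 0.152%, 0.369%, 0.709% and 0.34% of genes were called at these times.

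Of the 19 enzymes 12 at ZT2, 7 at ZT10 and 12 at ZT18 had all iKO below all flox libraries, while Hsd17b7 lay wholly above at ZT10. At ZT18 Mvd was at 57.8, 109 and 56.9 CPM in flox and at 14.4, 8.54 and 17.2 in iKO, a difference of -2.48 (SE 0.75, adjusted p = 0.105). Fdps was at 9.2, 9.77 and 6.32 CPM in flox and at 0.711, 0.206 and 1.31 in iKO, a difference of -3.54 (SE 1.19, adjusted p = 0.114). Both sets are without overlap, and iKO ZT18 3, which does not stand apart, is the highest iKO library in each; from it alone, without the 11, the differences were -2.13 (SE 0.72) for Mvd and -2.70 (SE 0.90) for Fdps, with the spread of the other groups. At ZT2 Sc5d was at 578, 371 and 535 CPM in flox and at 255, 207 and 220 in iKO. At ZT10 Hmgcs1 was at 191, 189 and 221 CPM in flox and at 82.3, 99.4 and 121 in iKO. At ZT10 Insig2 went the other way, at 51.8, 43.1 and 104 CPM in flox and 161, 112 and 200 in iKO. Insig2 at ZT18 was at 342, 294 and 307 CPM in flox and at 669, 990 and 362 in iKO. Those groups too did not overlap, and none of these differences was called.
Whether the genotype difference varied over the day was tested by an interaction term: no member was called, as no gene was (0% of 16582), and DESeq2 called 0 members. Idi1 (adjusted p = 0.76 by edgeR) and Mylip had an unadjusted p under 0.05, as 6.45% of genes did. Without the 11 edgeR called 0 of 17067 genes for it, and 3 members had an unadjusted p under 0.05, as 1449 genes did.

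In kidney, Sqle and Insig1 stood lower in iKO than in flox, and no member passed the test. Of the 29, 27 were tested, since Abcg5 and Abcg8 had too few counts, and 0.164% of 17630 genes were called. Sqle ran from 33 to 117 CPM in flox (median 62.7) and from 16.2 to 82.8 in iKO (median 48.9). It was lower in iKO at 6 of 6 times, with an average of -0.62 (SE 0.15, adjusted p = 0.0735). The ranges overlap, but at ZT18 it stood at 67.7, 55.2 and 99.5 CPM in flox and at 16.2, 23.5 and 32.8 in iKO, without overlap. Insig1 ran from 30.7 to 107 CPM in flox (median 66.7) and from 16.6 to 70.3 in iKO (median 45.6), a difference of -0.63 (SE 0.16, adjusted p = 0.0929). DESeq2 called both (adjusted p = 0.00962 for Sqle and 0.0164 for Insig1), and called 1.15% of its 17627 genes. Next by p came Lss at -0.26 (SE 0.08), Mvd at -0.30 (SE 0.12) and Dhcr7 at -0.19 (SE 0.09), with adjusted p-values of 0.23, 0.377 and 0.509 by edgeR. Those 5, all lower, and Pmvk, higher at 0.31 (SE 0.15), had an unadjusted p under 0.05, where 4.73% of genes were lower and 4.7% higher. Over the 19 enzymes the kidney averages ran from -0.62 to 0.31, and 14 were negative. Without the numbers whose liver library stands apart, no kidney member was called either (Sqle -0.65, adjusted p = 0.0908; Insig1 -0.62, adjusted p = 0.196), with 0.422% of genes called.

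By time, ZT18 stood out in kidney as in liver: 13 of 27 members, 11 of them enzymes, had all iKO below all flox libraries, where 9.1% of genes did so, and Mylip alone had all above (8.84% of genes). None was called by edgeR, with 0% of genes called; 11 members had an unadjusted p under 0.05 (14.2% of genes), and DESeq2 called 3 (0.854% of genes). Mvd there was at 60, 65 and 66.1 CPM in flox and at 21.6, 24.3 and 42.2 in iKO, and Lss at 23.9, 26.6 and 32.8 in flox and 12.6, 13 and 19.5 in iKO. The groups of both did not overlap; the differences were -1.12 (SE 0.30, adjusted p = 0.187) and -0.89 (SE 0.21, adjusted p = 0.162). The liver libraries of the same label, iKO ZT18 1 and 2, stand apart; nothing in the labels says that libraries of 1 number in different tissues come from 1 mouse. In kidney these 2 had kidney epithelium markers at 9.22 and 8.93 log2 CPM, against 10.08 in iKO ZT18 3 and 9.94 to 10.17 in flox, and macrophage markers at 2.43 and 2.21 against 1 and 1.09 to 1.33. The kidney libraries of the 11 numbers had interferon-stimulated genes (30 genes) at 4.5 to 6.94 log2 CPM against 1.68 to 4.73 in the others; their part was not tested. Without them, from iKO ZT18 3 alone against flox, the differences were -0.61 (SE 0.36) for Mvd and -0.53 (SE 0.25) for Lss, with the spread of the other groups; a single library says little of whether they hold. At ZT10 the kidney was mixed, with 7 members wholly below (7.96% of genes) and 5 wholly above flox (7.41% of genes). The 5 were Hmgcs1, Cyp51, Ebp, Acat2 and Mvd, and the 7 included Insig1, Lss and Abca1. At ZT2 it was 2 below (5.5% of genes) and Scap above (4.62%), at ZT6 4 below (3.29%), at ZT14 Abca1 below (6.65%) and at ZT22 Scap below (5.54%). For variation of the difference over the day no member was called by edgeR or DESeq2, and 0% of genes were by edgeR. There 9 members had an unadjusted p under 0.05 (7.79% of genes), and Lss had the smallest (adjusted p = 0.628 by edgeR).

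WAT libraries were mixed in tissue before any sterol gene was compared. Adipocyte markers (9 genes) ran from 5.85 to 11.43 log2 CPM in flox and from 4.07 to 11.91 in iKO, skeletal muscle markers from -0.72 to 12.26 and from -0.89 to 12.29, and epididymis and testis markers from -2.36 to 8.04 and from -2.74 to 8.34. The only fit that took this mixture in used the muscle and the epididymis and testis marker means as covariates, and its values are not given here. The part of the mixture in the values below was not tested otherwise. No member was called for genotype in WAT by edgeR, with 0% of 21402 genes called, nor by DESeq2, and 1 member lower and 1 higher in iKO had an unadjusted p under 0.05 (1.64% and 2.12% of genes). Abcg1 had the smallest p: it ran from 9.99 to 42.3 CPM in flox (median 22.4) and from 8.8 to 161 in iKO (median 34.3), higher at 6 of 6 times with an average of 0.78 (SE 0.25, adjusted p = 1 by edgeR). The ranges overlap. Next came Stard4 at -0.44 (SE 0.21), Sc5d at -0.38 (SE 0.20), Idi1 at -0.38 (SE 0.23) and Insig2 at 0.33 (SE 0.20), all with an adjusted p of 1. Insig1 differed by -0.10 (SE 0.24) in WAT. Dhcr7 had a single very high WAT library, iKO ZT18 1 at 442 CPM, with iKO ZT6 1 at 153; the others lay at 2.98 to 29.6 CPM. Its average was 0.70 (SE 0.43) with all libraries and -0.99 (SE 0.26, adjusted p = 0.982) without the 11 numbers, which include both, so its sign rests on them.

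Whether the average genotype difference was larger in 1 tissue than in another was tested in 1 fit of all libraries, and no member was called by edgeR. For liver against WAT 6 members had an unadjusted p under 0.05 (13.6% of genes) and DESeq2 called 2 (3.77% of genes). For liver against kidney 10 had such a p (11.4% of genes) and for kidney against WAT 2 did (3.15%), and DESeq2 called 0 in both. The smallest p was that of Dhcr7, liver against WAT, at -1.48 (SE 0.44, adjusted p = 0.0863 by edgeR), and without the 11 numbers, which include the 2 high WAT libraries, it was 0.12. Insig1 differed between liver and WAT by -1.22 (SE 0.39, adjusted p = 0.116) and Hmgcs1 by -1.09 (SE 0.37, adjusted p = 0.129); without the 11 numbers both were called (-1.58, adjusted p = 0.0353, and -1.50, adjusted p = 0.0376), as were 81 of 23814 genes. Of all 22789 genes 0.592% were called for that difference, 0.395% for liver against kidney and 0.0132% for kidney against WAT.

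A daily rhythm, tested as a cosine of 24 h within each genotype, was called for 4 of 27 members in flox kidney, where 5.07% of genes were, and for 2 in iKO kidney, where 4.22% were. Pmvk, the kinase after Mvk, had the largest amplitude in flox, 0.83 from mean to peak on the log2 scale with its peak at 14.4 h (adjusted p = 0.0115), and 0.67 with its peak at 12.6 h in iKO (adjusted p = 0.0405). Flox kidney held 3.96, 3.53 and 2.19 CPM of it at ZT2 and 14.9, 13.7 and 11.6 at ZT14. Those groups did not overlap. Ggps1, which makes geranylgeranyl diphosphate, peaked at 3.28 h with an amplitude of 0.28 (adjusted p = 0.0117), Hmgcs1 at 3.64 h with 0.53 (adjusted p = 0.044) and Mvk at 12.1 h with 0.38 (adjusted p = 0.037), all in flox. Scap was called in iKO, with its peak at 8.38 h and an amplitude of 0.30 (adjusted p = 0.0353). In flox Scap had an amplitude of 0.24 (adjusted p = 0.0792). Without the 11 numbers 4 members were called in flox and 0 in iKO, with Scap (adjusted p = 0.0335) in place of Mvk (adjusted p = 0.0529) in flox, where 8.65% and 0.17% of genes were called. Hmgcs1 and Ggps1 thus peaked early in the light phase, and Mvk and Pmvk around and after lights off. The fit without the 11 numbers kept 16 flox but 9 iKO libraries, none of the latter at ZT22, so its counts for the genotypes rest on unlike sets.

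**Figure D4:**
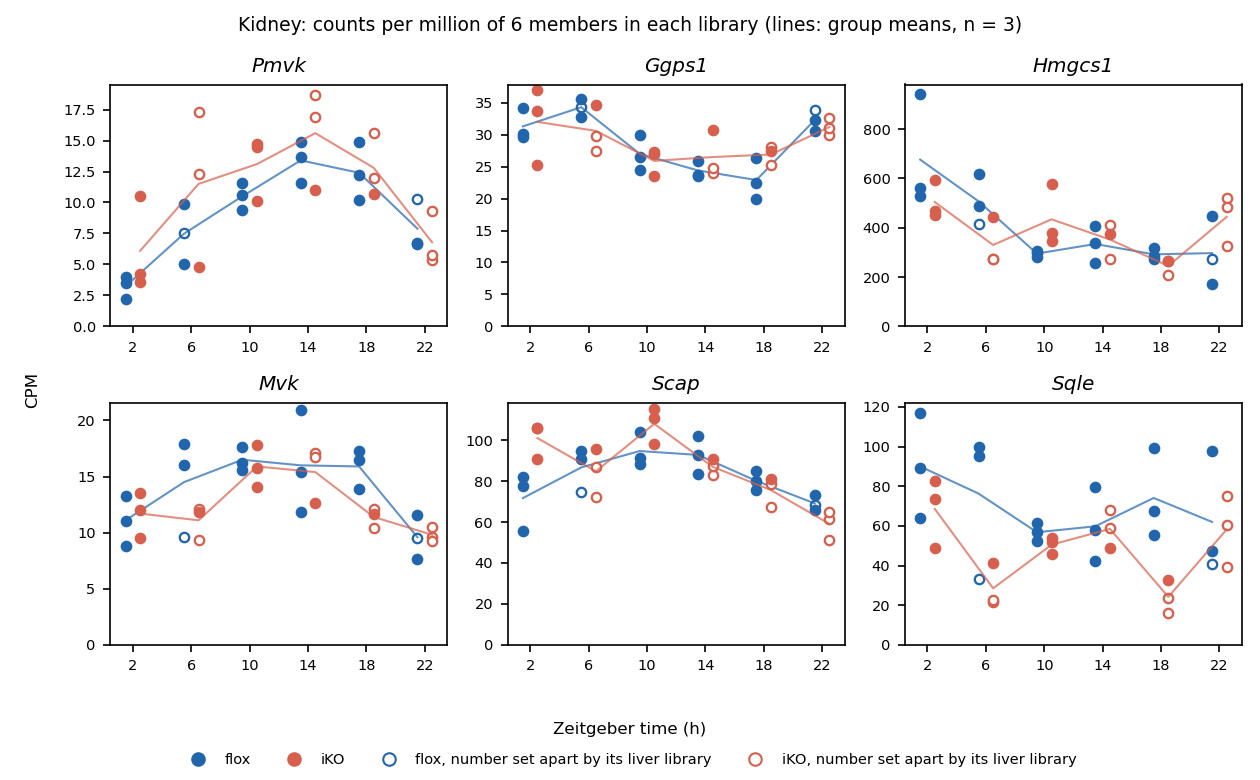
CPM of 6 members in each kidney library against zeitgeber time, from 0, flox in blue and iKO in red; lines join group means (n = 3), and open circles are numbers whose liver library stands apart. Flox Pmvk climbs from 2.19 to 3.96 at ZT2 to 11.6 to 14.9 at ZT14, and Sqle in iKO lies below flox at ZT18.

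In liver no member was called for rhythm in either genotype by edgeR or DESeq2, while 1 in flox and 5 in iKO had an unadjusted p under 0.05 (14.9% and 12.2% of genes), and edgeR called 0.772% of genes in flox and 0.0844% in iKO. Insig2 had the smallest p in flox (amplitude 0.92, peak at 21.5 h, adjusted p = 0.238) and Abcg5 in iKO (amplitude 1.46, peak at 5.14 h, adjusted p = 0.26). Without the 11 libraries 7 members were called in flox, where 8.24% of genes were, and 0 in iKO, where 0.861% were. That fit kept 16 flox libraries over all 6 times, but 9 iKO libraries, none at ZT22 and a single one at ZT6, ZT14 and ZT18. The counts of the genotypes thus rest on unlike sets of libraries. In flox Abcg8 and Abcg5 then peaked at 3.7 h and 3.64 h, with amplitudes of 0.68 and 0.82 (adjusted p = 0.00784 and 0.0237). Insig1 and Insig2 peaked in the dark phase, at 19.7 h and 19.4 h, with amplitudes of 0.47 and 1.05 (adjusted p = 0.0374 and 0.0134). The enzymes Lss, Sc5d and Hmgcs1 peaked from 21.7 h to 0.934 h, with amplitudes of 0.48, 0.53 and 0.79 (adjusted p from 0.0275 to 0.0352). The difference of rhythm between genotypes was called for 0 members in any tissue by edgeR, with and without the 11, and by DESeq2; with all libraries 0 members had an unadjusted p under 0.05 for it. Without the 11 such a p was found for 5 members in liver (Acat2, Fdps, Lss, Hsd17b7 and Insig1, with 2179 of 17067 genes), 3 in WAT (Hmgcs1, Dhcr7 and Scap, with 1093 of 22525 genes) and 0 in kidney; their lowest adjusted p was 0.245 by edgeR, for Insig1 in liver. In WAT edgeR and DESeq2 called 0 members for rhythm in either genotype, 4 in flox and 0 in iKO had an unadjusted p under 0.05 (9.69% and 3.78% of genes), and edgeR called 0% of genes.

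Liver was the tissue richest in these genes. Per length, as CPM per kilobase of gene model (RPKM) in flox, the highest in liver were Ebp at 202 ± 58.4 (SD, n = 18), the isomerase of the sterol ring, Insig1 at 170 ± 84.7, Hmgcs1 at 153 ± 103, Sc5d at 121 ± 65.1 and Insig2 at 100 ± 97.2. Their SDs are so wide that this order does not hold beyond the spread. The lowest were Mylip at 3.41 ± 2.90, Ggps1 at 3.27 ± 0.634, Abcg1 at 3 ± 4.75 and Fdps at 2.09 ± 1.1. Kidney was led by Hmgcs1 at 77.7 ± 34.4 and Cyp51, the lanosterol demethylase, at 56.5 ± 19.7, and WAT by Acat2 at 46.1 ± 20.9 and Insig1 at 27.5 ± 13.3. Abcg5 and Abcg8 were at 53.1 ± 35.7 and 22.6 ± 10.4 in liver, at 0.0138 ± 0.0178 and 0.0178 ± 0.0273 in kidney, and at 0.133 ± 0.190 and 0.0448 ± 0.0667 in WAT. The flox WAT libraries were mixed in tissue, as given above. Their epididymis and testis markers ran from -2.36 to 8.04 log2 CPM and their skeletal muscle markers from -0.72 to 12.26. The part of that mixture in the WAT values here and below was not tested.

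**Figure D5:**
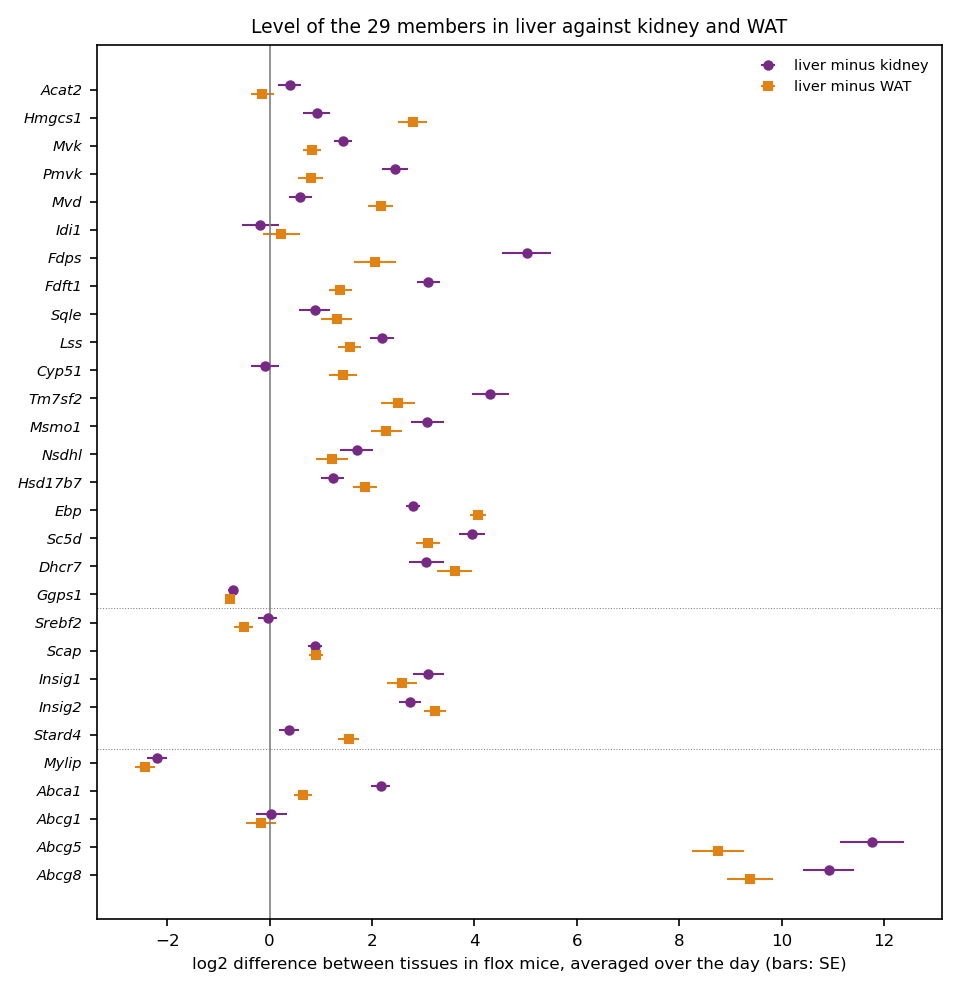
Log2 difference of each member in flox mice, averaged over the day, of liver minus kidney and of liver minus WAT, with SE. Most members lie right of 0, Abcg5 and Abcg8 farthest. Left of 0 in both comparisons lie Mylip (-2.20 and -2.43), Ggps1 (-0.72 and -0.77) and Srebf2 (-0.04 and -0.51). Idi1 and Cyp51 lie left of 0 against kidney only, and Abcg1 and Acat2 against WAT only.

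Against kidney, 23 of 29 members were called in flox, 21 higher and 2 lower in liver, where 28.5% and 34% of 22789 genes were; the median was 1.70 against -0.06 for all genes. The farthest up were Abcg5 (11.76, SE 0.62), Abcg8 (10.92, SE 0.50) and Fdps (5.02, SE 0.48), and the called members down were Mylip (-2.20, SE 0.19) and Ggps1 (-0.72, SE 0.09). Idi1 came next at -0.18 (SE 0.36), not called. Against WAT, 26 were called, 23 higher and 3 lower in liver, where 29.1% and 45.2% of genes were, and the median was 1.54 against -0.40. The farthest up were Abcg8 (9.38, SE 0.44), Abcg5 (8.76, SE 0.51) and Ebp (4.07, SE 0.15), and the 3 down were Mylip (-2.43, SE 0.19), Ggps1 (-0.77, SE 0.09) and Srebf2 (-0.51, SE 0.19). These comparisons share the flox liver libraries. Without the 11 numbers 25 members were called against kidney, 23 higher and 2 lower in liver, where 6414 and 8166 of 23814 genes were. Against WAT 27 were called, 23 higher and 4 lower, where 6509 and 10343 genes were, with Abcg1 as the fourth down. The medians were 1.82 and 1.67, against -0.13 and -0.51 for all genes. Abcg5 was then at 11.78 and 9.17, and Mylip at -2.52 and -2.78.
Kidney and WAT were closer: 20 members were called, 7 higher and 13 lower in kidney, where 25.1% and 38.4% of genes were, and the median was -0.47 against -0.26. As in the comparison with liver, WAT stands here for libraries of mixed tissue, and the part of that mixture was not tested. Hmgcs1 (1.87, SE 0.27), Mvd (1.57, SE 0.23) and Cyp51 (1.52, SE 0.27) were farthest up in kidney, and Abcg5 (-3, SE 0.69), Fdps (-2.97, SE 0.45) and Tm7sf2 (-1.80, SE 0.32), a sterol reductase, farthest down. Abcg5, Abcg8 and Fdps are near 0 in kidney, so their fitted differences depend on edgeR's handling of low counts. With the number as a block 18 were called, as were 14005 of 22789 genes. The block took off Abcg8 (adjusted p = 0.0348 without the block and 0.0812 with it, by edgeR) and Srebf2 (0.0259 and 0.0705). Without the 11 numbers neither Abcg8 nor Srebf2 was called, and 19 members were, as were 14275 of 23814 genes.

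Other genes of sterol metabolism were taken from 7 lists. As given above, 2.64% of all genes were called in liver with all libraries and 3.91% lower and 3.12% higher without the 11, and in kidney 0.164% and 0.422%. In liver with all libraries, 2 of 10 other SREBP targets fell: Srebf1, the lipogenic SREBP gene, had a difference of -1.72 (SE 0.27, adjusted p = 0.00143), and Rdh11, a retinol dehydrogenase, of -1.20 (SE 0.28, adjusted p = 0.0207) in edgeR's test. Of the same list 5 of 10 fell without the 11, with Acly (-1.84) and Acss2 (-1.16), which make acetyl-CoA for lipid synthesis, among them. With all libraries Acly differed by 0.17 (SE 0.40, adjusted p = 0.823 by edgeR), so its sign turned between the fits. Acss2 was lower in both, at -1.57 (SE 0.45, adjusted p = 0.058 by edgeR) with all libraries. Of 8 LXR genes, with all libraries, Lpl, the lipoprotein lipase, rose by 1.46 (SE 0.30, adjusted p = 0.00995) and Srebf1, on this list too, fell. In the fit without the 11, Lpl was not called (1.17, adjusted p = 0.0538) and the desaturase Scd1 fell (-1.18, adjusted p = 0.0164). Of 10 lipoprotein receptor and HDL genes, the endothelial lipase Lipg rose by 1.68 (SE 0.25, adjusted p = 0.00124). Of 14 genes of sterol trafficking and storage, Nceh1, which cleaves cholesteryl esters, rose by 0.76 (SE 0.19, adjusted p = 0.03). Of 18 clock genes, the repressor Bhlhe40 fell by 0.75 (SE 0.20, adjusted p = 0.0418). Without the 11 libraries Lipg, Nceh1 and Bhlhe40 were called again, with Lipc, Osbp and Nfil3 beside them in their lists. None of 11 other synthesis and isoprenoid genes and none of 9 other sensing genes was called; without the 11 libraries Pdss1, of ubiquinone synthesis, fell by 0.90 (adjusted p = 0.00749). In kidney, the desaturase Fads1, of the SREBP list, fell by 0.59 (SE 0.12, adjusted p = 0.03), and the clock gene Npas2 rose by 1.49 (SE 0.28, adjusted p = 0.0251). Without the 11 numbers Fads1 was not called (-0.50, adjusted p = 0.133) and Srebf1 fell in kidney too (-1.18, adjusted p = 0.000204). In WAT edgeR called 0 genes of the 7 lists. The lists were chosen with earlier results of these data known.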

How the data were processed

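RNA-seq of 3 tissues with 36 libraries each was analysed from 1 gene table. Whole-read counts per gene were deposited by the authors; the submitters' processing notes name featureCounts 1.5.0-p3, the aligner HISAT2 2.0.4, the genome GRCm38 and DESeq2 1.16.1, and per the labels' protocols RNA was isolated with Trizol and sequenced in 150 bp reads from NEBNext Ultra libraries. Whether counting used strand or multiply mapped reads is not given in the sources used here. The table's gene coordinates differ from GRCm38: 1 of 29 members has the start and end of GENCODE vM21, while all 29 have the same span, so none of the table's coordinates is printed. The lowest and highest total counts were 14428000 and 23428000 in liver, 13876000 and 22123000 in kidney, and 14103000 and 24415000 in WAT. No library was a copy of another in its group (lowest chi-square per degree of freedom 10.5 over all pairs within groups). Pairs across groups were not compared. All columns of the table matched a sample.

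The counts were tested with edgeR 4.0.16 (R 4.3.3): filterByExpr, TMM, 1 fit per tissue with a mean per genotype and time, robust quasi-likelihood test, Benjamini-Hochberg adjustment over all genes tested. Rhythm used a mean, cosine and sine of 24 h per genotype, and tissues 1 fit of all libraries. Biological variation between libraries of a group (edgeR's BCV) was lowest in kidney (0.302), then liver (0.514) and WAT (0.785). CPM are counts scaled by TMM library sizes within a tissue, RPKM those scaled over all libraries, per kilobase of the table's gene length; marker means use log2 CPM with a prior count of 2. Scripts were tested on simulated data. Deviations of same-numbered libraries of the 2 genotypes correlated at over 0.1 in 6, 5 and 10 of 18 pairs in liver, kidney and WAT. Median correlations were 0.04, 0.03 and 0.11, against -0.01, -0.02 and -0.09 for different numbers. The lowest were -0.61, -0.3 and -0.66 and the highest 0.69, 0.43 and 0.85. These values do not settle whether numbers pair samples, least of all in WAT, and the main fits took samples as unpaired. Pairing of numbers across tissues was not tested.

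Alternatives were DESeq2 1.42.0, its size factors in edgeR, no filter, a replicate block, fits of 1 time or genotype, time as a factor, leaving out each library, and, chosen after seeing the data, leaving out the 11 numbers whose liver library has cell cycle genes above 2 log2 CPM on average, or the 2 with Xist above 3, marker covariates in WAT, and the test of effects between tissues. Members and lists were chosen with earlier results of these data known. All members are named; those called, or the 5 with the smallest p, are given by library or group, with the 3 farthest each way between tissues, and listed pathway genes only where called.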

Additional observations from a re-analysis of the deposited data

Results flagged for a closer look

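At ZT10 3 genes differed in opposite directions in 2 tissues with no overlap of the 3 iKO and 3 flox libraries in either tissue; the differences between the tissues were not tested, and none of the 6 log2 values was called by edgeR. Within 1 tissue, 10.4% of all genes lay wholly lower in iKO in liver, 7.41% wholly higher and 7.96% wholly lower in kidney, and 4.94% wholly higher in WAT. Hmgcs1 was lower in iKO in liver (-0.99) and higher in kidney (0.55), where it stood at 283, 305 and 298 CPM in flox and at 377, 576 and 348 in iKO. Mvd was lower in liver (-1.49) and higher in kidney (0.24), where it stood at 52, 56.1 and 49.1 CPM in flox and at 59, 59.1 and 67.9 in iKO. Abca1 was lower in kidney (-0.97), at 52, 44.8 and 64.3 CPM in flox and 33.4, 17.2 and 31.7 in iKO, and higher in WAT (0.80), at 86.8, 138 and 189 CPM in flox and 208, 287 and 228 in iKO. None of these libraries belongs to a number that stands apart.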

How the results depend on the processing

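The counts below are of called members, each set against its count under edgeR with all libraries; the cause of each move was not tested. DESeq2 gave 5 in place of 0 for the liver average, 1 in place of 0 at liver ZT14, 6 in place of 0 at liver ZT18, 2 in place of 0 for the kidney average, 3 in place of 0 at kidney ZT18 and 2 in place of 0 for the effect in liver against WAT. Leaving out the 11 numbers gave 14 in place of 0 for the liver average, 1 at ZT2, 1 at ZT10, 2 at ZT14 and 1 at ZT18 in place of 0 (the last 2 times from a single iKO library each, taken to vary as the other groups), 7 in place of 0 for rhythm in flox liver, 0 in place of 2 for rhythm in iKO kidney and 2 in place of 0 for liver against WAT (81 of 23814 genes), and turned the liver differences of Abcg1 (0.97 to 0) and Idi1 (0.92 to -1.09). For rhythm in iKO kidney, 2 became 0 with no filter, with iKO libraries alone and without the 2 Xist numbers, and 19 with time as a factor, where 40% of genes were called; in flox kidney 4 became 2 with no filter, in iKO liver 0 became 2 with time as a factor (1916 of 16582 genes). Libraries of ZT10 alone gave 4 in place of 0 in liver (297 of 13640 genes). The replicate block used the number within a tissue, and genotype, time and number in the fit of all tissues. Whether these numbers pair samples is not known. The block gave 1 in place of 0 for the liver average (Insig1, adjusted p = 0.0498 by edgeR). It took Hmgcs1 off the rhythm calls of flox kidney (adjusted p = 0.0547 by edgeR). It also took Abcg8 and Srebf2 off the calls of kidney against WAT in flox (18 in place of 20). No other count of members moved by over 1.5 times with it.

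Leaving out each library gave 0 to 9 members for the liver average (9 without flox ZT6 1 or flox ZT22 1, 7 without iKO ZT6 3, 5 without iKO ZT18 3, 1 without iKO ZT14 3; 208 to 3247 genes in all) and 0 to 3 at liver ZT18 (3 without flox ZT6 1 or iKO ZT18 3, 1 without flox ZT22 1; 0 to 1844 genes). It gave 0 to 1 for rhythm in flox liver (1 without flox ZT6 1; 60 to 205 genes), 0 to 2 for the kidney average (2 without flox ZT6 1 or iKO ZT18 3, 1 without flox ZT22 1 or iKO ZT6 3; 6 to 125 genes), 0 to 1 at kidney ZT14 (1 without iKO ZT14 3; 0 to 28 genes) and 0 to 4 at kidney ZT18 (4 without iKO ZT18 3; 0 to 462 genes). Rhythm in flox kidney ran from 2 to 4 members, with 346 to 1185 genes in all (2 without flox ZT2 3, ZT10 2, ZT18 1 or ZT22 2). In iKO kidney it ran from 0 to 5 members, with 170 to 1601 genes in all and 13 of 36 fits moved. The count there was 5 without iKO ZT2 1, 4 without ZT6 1 and 0 without ZT10 1 or any of ZT22. It was 1 without ZT2 2 or 3, ZT10 2, ZT14 1 or 2, ZT18 1 or 2. The effect in liver against WAT ran from 0 to 2 (2 without replicate 3, with 1584 of 23280 genes). Counts for tissue differences in flox stayed within 1.5 times. With 3 libraries a group, single times have little power in liver and WAT, whose libraries varied most.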

Other observations

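The ratio of Insig2 to Insig1 CPM, a measure chosen after the values were seen, ran in kidney from 0.47 to 1.29 in flox (median 0.722) and from 0.644 to 2.42 in iKO (median 1.17), with overlap. In WAT it ran from 0.167 to 1.43 in flox and from 0.157 to 2.86 in iKO. These are descriptions with no test.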
